A study of Mus musculus with 49 samples.

Results

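The dual-specificity MAP kinase phosphatases were followed in mouse liver after an overdose of acetaminophen (APAP, paracetamol). The members were 8 genes, Dusp1, Dusp2, Dusp4, Dusp5, Dusp6, Dusp8, Dusp10 and Dusp16, taken as every probe set whose annotation names that gene and no other. They hold 12 of the 45101 probe sets on the array, of which 34958 carry 1 gene symbol and together name 18194 genes. In the study, male C57BL6/N mice were starved overnight, received 1 intraperitoneal dose of 300 mg/kg APAP and were then fed freely. Livers were taken at 1, 6 and 12 h and at 1, 2, 4, 6, 8 and 16 days (d), and a control group was included. There were 49 arrays, with 4 at 6 h and 5 in each of the other groups. The last time named in the study's design text is 8 d, so that only the sample labels give the 16 d group. The sources used here do not say whether the controls were starved or given the vehicle. They also do not say that each array is a separate mouse, so a p-value here sets a difference against the scatter of arrays, some of which may be technical.

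MAP kinases (ERK, JNK and p38) carry growth factor and stress signals to the nucleus, and each is active only while both a threonine and a tyrosine in its activation loop are phosphorylated. The phosphatases described here remove both phosphates and so switch the kinase off. Most of their genes are themselves transcribed in response to MAP kinase signalling, which makes their transcripts part of a negative feedback loop. In injured liver, JNK is known for its part in APAP toxicity, and ERK for its part in the regrowth of hepatocytes. By location and preference the family falls into a nuclear inducible class (Dusp1, Dusp2, Dusp4, Dusp5), a cytoplasmic class that prefers ERK (Dusp6) and a class that prefers JNK and p38 (Dusp8, Dusp10, Dusp16).

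Promoter sequence was available for 7 of the 8 members (RefSeq, build GRCm38.p6), as the 250 bases before the annotated start. Both strands were searched for the cAMP response element TGACGTCA, the AP-1 site TGANTCA, the EGR site GCGNGGGCG and the CArG box bound by serum response factor. Over 32536 promoter windows of the same length, these were present in 1.56%, 6.73%, 4.74% and 1.48% respectively. The sequences shown are those of the 3 members with a cAMP response element or a CArG box. Capitals mark the matches, and each sequence runs 5′ to 3′ on the strand of the gene.
Dusp1, minus strand, chr17:26508473-26508722: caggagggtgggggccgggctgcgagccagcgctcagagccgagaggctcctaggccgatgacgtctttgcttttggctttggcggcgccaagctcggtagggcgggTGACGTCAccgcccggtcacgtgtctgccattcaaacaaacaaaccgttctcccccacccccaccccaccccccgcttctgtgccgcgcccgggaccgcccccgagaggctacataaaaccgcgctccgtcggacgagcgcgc
Dusp5, plus strand, chr19:53528895-53529144: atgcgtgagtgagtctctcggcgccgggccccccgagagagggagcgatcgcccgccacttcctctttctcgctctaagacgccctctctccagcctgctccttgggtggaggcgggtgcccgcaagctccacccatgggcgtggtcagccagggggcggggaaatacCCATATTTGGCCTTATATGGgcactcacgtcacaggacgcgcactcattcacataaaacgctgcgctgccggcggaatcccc
Dusp8 first site, minus strand, chr7:142095373-142095402: gcccgctccgcTGACGTCAcctgcccccga
Dusp8 second site, minus strand, chr7:142095329-142095358: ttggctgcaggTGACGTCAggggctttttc
The Dusp1 window holds 1 cAMP response element, at bases -143 to -136 counted back from the base before the start. Dusp5 has a pair of CArG boxes side by side, at -82 to -73 and -72 to -63. Dusp8 has 2 cAMP response elements, at -107 to -100 and -63 to -56. Dusp2 and Dusp16 each hold 1 EGR site, which does not overlap another of the searched motifs. The windows of Dusp8 and Dusp16 lie inside the span of their annotated genes. None of these 4 motifs was found in the windows of Dusp6 and Dusp10. A match describes the letters only, and no binding was measured.

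Expression was measured on Affymetrix Mouse Genome 430 2.0 arrays, and the deposited values are on a log2 scale, so that a difference of 1 is a doubling. Arrays of 5 groups (control and the samples of 6 h, 4 d, 6 d and 8 d) had values for a subset of probe sets, and 8137 had a value on all 49 arrays. Of the members, 5 probe sets of 4 genes (Dusp6, Dusp8, Dusp10, Dusp16) were among them and could be set against control. The other 7 probe sets, including the ones for Dusp1, Dusp2, Dusp4 and Dusp5, had values on the 25 arrays taken at 1 and 12 h and at 1, 2 and 16 d. No probe set was filtered out for a low value in the tests reported. The median of all values is 4.89 and the lowest 25% lie below 3.62, which gives a scale for the levels below. Over the 8137 probe sets, array means lay between 6.03 and 6.33. Over the same probe sets, 46 arrays had an SD of 2.40 to 2.48. The other 3 had a narrower one of 2.25 to 2.26 (control array 3, 1 h array 3 and 16 d array 4). Member calls that changed when those 3 were left out together are given beside the result. The mean over 9 hepatocyte markers such as Alb was 12.9 to 13.4 on the 25 arrays, near the top of the scale (highest value 14.4). Livers were measured in bulk, so a change in the number of cells of a type and a change in RNA per cell cannot be told apart.

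All 4 members with control values were higher than control at 6 h and at 12 h. The largest differences were those of Dusp8 at 6 h (2.24 on the log2 scale, 4.72-fold) and Dusp10 at 12 h (2.31, 4.96-fold). At 1 d and 2 d, Dusp10 and Dusp16 were still higher, and no member passed the test against control at 1 h, 4 d, 6 d, 8 d or 16 d. Of the 36 member and time pairs, 12 passed an adjusted p of 0.05, all of them higher (limma across all probe sets, Benjamini-Hochberg adjustment within each contrast). The higher calls among all probe sets made up 3.61% at 6 h, 11.5% at 12 h, 16% at 1 d and 19.5% at 2 d. The share of all 8137 probe sets called in either direction was 0.578% at 1 h, 5.42% at 6 h, 22.8% at 12 h, 28.8% at 1 d and 31.8% at 2 d. It was 15.2% at 4 d, 7.47% at 6 d, 7.19% at 8 d and 5.89% at 16 d. The 4 of 4 at 6 h thus stand against 5.42%, whereas 2 of 4 at 2 d stand against 31.8%. The members were chosen with earlier results of these data known, so these shares give a scale and not a test. Arrays of the time point lay wholly above control in 4 of 4 members at 6 h (4.46% of probe sets), 3 of 4 at 12 h (6.61%), 1 of 4 at 1 d (9.41%) and 3 of 4 at 2 d (13.1%). The median difference over the 4 members was 1.78 at 6 h and 1.43 at 12 h, and that over all 8137 probe sets was -0.01 and -0.04. All 4 also differed across the 10 groups by the F test, as did 52.8% of probe sets.

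**Figure D1:**
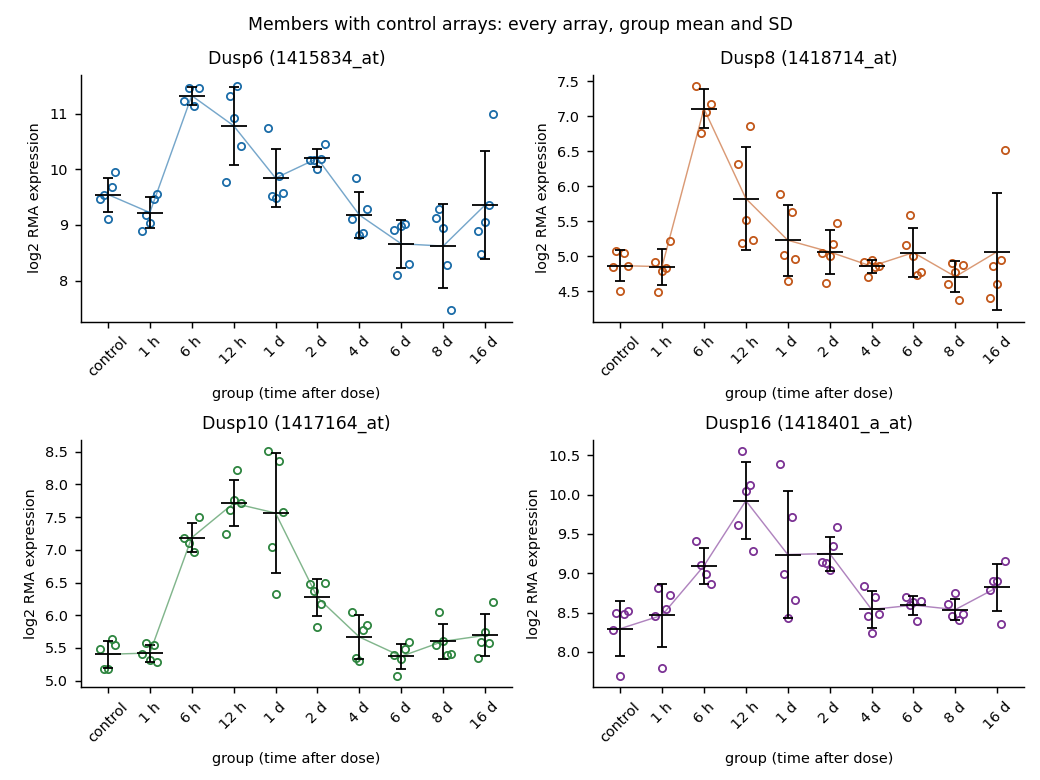
Log2 expression of the 4 members with control arrays in all 10 groups. Open circles are arrays, black bars the group mean and SD (n = 4 at 6 h, n = 5 elsewhere), and lines join the means. Dusp6 and Dusp8 had their highest mean at 6 h, Dusp10 and Dusp16 at 12 h, and 16 d array 5 lies above the other 16 d arrays.

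Dusp6 (probe set 1415834_at; gene at chr10:99263231-99267489) encodes the cytoplasmic phosphatase that prefers ERK. The control arrays read 9.46, 9.54, 9.11, 9.68 and 9.95 log2 units, and the 6 h arrays read 11.23, 11.46, 11.15 and 11.47. Every 6 h array was above every control array. The difference was 1.78 ± 0.35 (SE; adjusted p = 0.00048, limma). At 12 h the values were 9.77, 11.31, 10.92, 11.51 and 10.42, with array 1 inside the control range and the other 4 above it. The 12 h difference was 1.24 ± 0.33 (adjusted p = 0.0044, limma), and with arrays weighted by their quality it was 0.97 (adjusted p = 0.052). By 1 d the mean was 9.84 ± 0.52 (SD, n = 5) and overlapped control.

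The 2 d arrays of Dusp6 read 10.17, 10.17, 10.00, 10.19 and 10.46, all above the highest control array, yet the difference of 0.65 did not pass (95% interval -0.01 to 1.31, adjusted p = 0.13, limma). It passed when only 2 d and control were fitted (adjusted p = 0.0082). Dusp6 then fell between 2 d and 4 d by 1.02 on the log2 scale (adjusted p = 0.024, limma). That call was lost without 2 d array 5 (-0.95), 4 d array 3 (-0.93) or 4 d array 4 (-0.94). The 6 d arrays read 8.91, 8.10, 8.98, 9.02 and 8.29, all below the lowest control array, as were the arrays of 2.45% of probe sets. The differences from control were -0.89 at 6 d (adjusted p = 0.095) and -0.93 at 8 d (adjusted p = 0.079), neither of which passed in the limma fit. Both passed with quantile normalization (-1.01 and -1.03, adjusted p = 0.038 and 0.034) and with array weights (-0.97 and -1.17). The 8 d difference also passed with median centring (-0.98) and without 8 d array 2 (-1.09), and the 6 d difference when only 6 d and control were fitted (adjusted p = 0.019). Without 16 d array 5, which enters neither difference but does enter the common estimate of spread, both passed (adjusted p = 0.041 and 0.031).

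Dusp8 (1418714_at; gene at chr7:142079487-142095907) encodes a phosphatase of the JNK and p38 class. The control arrays read 4.85, 5.07, 4.51, 5.05 and 4.86. These values lie below the medians of the control arrays over the 8137 probe sets, which were 5.65 to 5.78. At 6 h the values were 7.43, 6.76, 7.06 and 7.17, so that the lowest 6 h array lay well above the highest control array. The difference was 2.24 ± 0.29 (adjusted p = 3.4e-07, limma). At 12 h the arrays spread between 5.20 and 6.86, with arrays 1 and 4 (6.32 and 6.86) apart from the other 3 (5.20, 5.51 and 5.24). All 12 h arrays were still above control, by 0.96 ± 0.27 on average (adjusted p = 0.0078, limma). This call was lost without 12 h array 4 (0.70, adjusted p = 0.055) and when only 12 h and control were fitted (adjusted p = 0.055). From 1 d on, the group means lay between 4.71 and 5.23 and no difference from control passed.

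Dusp10 (1417164_at; gene at chr1:184034381-184075636) encodes another phosphatase that prefers JNK and p38. Like Dusp16, it was called against control at 4 times. Control arrays read 5.48, 5.18, 5.18, 5.63 and 5.54. The 6 h arrays read 7.18, 7.10, 6.97 and 7.50, and the 12 h arrays 7.24, 7.61, 7.77, 8.23 and 7.72, all above every control array. Differences from control were 1.78 ± 0.25 at 6 h (adjusted p = 1.8e-06) and 2.31 ± 0.24 at 12 h (adjusted p = 3.6e-10, limma). At 1 d the arrays ranged widely, from 6.32 (array 3) to 8.51 (array 1), and the difference was 2.16 ± 0.24 (adjusted p = 1.3e-09, limma). At 2 d all arrays (5.83 to 6.50) were above control, and the difference was 0.87 ± 0.24 (adjusted p = 0.0037, limma). From 4 d on, the means (5.37 to 5.69) were within 0.29 of control.

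Dusp16 (1418401_a_at; gene at chr6:134715468-134807063), the third member of the JNK and p38 class, was lowest on control array 3 (7.70), and read 8.28, 8.50, 8.48 and 8.52 on the other control arrays. The 12 h arrays read 9.62, 10.55, 10.04, 10.12 and 9.29, all above control. The difference at 12 h was 1.63 ± 0.23 (3.09-fold; adjusted p = 8.9e-07, limma). At 1 d the values ran from 8.44 to 10.38 and overlapped control, with a difference of 0.94 ± 0.23 (adjusted p = 0.0017, limma) that did not pass when only 1 d and control were fitted (adjusted p = 0.07). At 2 d they ran from 9.05 to 9.58, above control by 0.96 ± 0.23 (adjusted p = 0.0013, limma).

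The 6 h call of Dusp16 was lost in many of the fits that left out an array. Its 4 arrays ran from 8.87 to 9.41, all above control, and the difference was 0.80 ± 0.25 (adjusted p = 0.046, limma). It was lost when any 1 of control arrays 1, 2, 3 or 4 or any 1 of the 6 h arrays was left out, with differences of 0.65 (without control array 3) to 0.88 (without 6 h array 5) and adjusted p of 0.0504 to 0.156. Of the arrays of other groups, 12 also ended it when left out singly (adjusted p = 0.0501 to 0.0509). It was also lost without the 3 arrays of narrow spread (0.65, adjusted p = 0.091). With that call gone, 11 of 36 pairs remained past the threshold without those 3 arrays. The shares of all probe sets called in that fit are not given here. Control array 3 was the lowest control array in all 4 members.

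**Figure D2:**
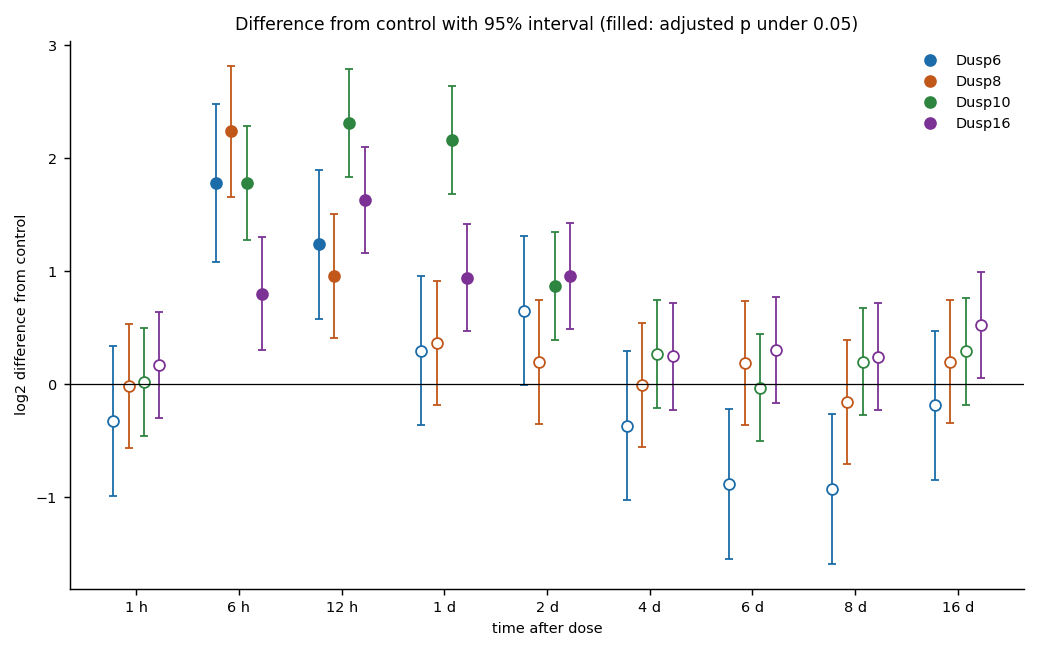
Difference from control on the log2 scale (y axis) at each time (x axis) for the 4 members, with 95% intervals from limma. Filled points passed an adjusted p of 0.05: all 4 members at 6 h and 12 h, and Dusp10 and Dusp16 at 1 d and 2 d.

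Steps between neighbouring times were tested in the same fit, and 8 of 32 passed. From 1 h to 6 h, Dusp6 rose by 2.10 ± 0.35 (adjusted p = 6.1e-05), Dusp8 by 2.25 ± 0.29 (adjusted p = 6.9e-07) and Dusp10 by 1.76 ± 0.25 (adjusted p = 3.7e-06, limma), where 3.93% of probe sets were called. Dusp16 differed by 0.63 over that step, with all 6 h arrays above all 1 h arrays, and did not pass (adjusted p = 0.17). Over all probe sets, 6.03% lay wholly above 1 h at 6 h. Between 6 h and 12 h the members parted, with 8.34% of probe sets called. Dusp8 fell by 1.28 on the log2 scale (adjusted p = 0.003, limma), although it did not pass when only those 2 groups were fitted (adjusted p = 0.065). Dusp16 rose by 0.83 ± 0.25 (adjusted p = 0.028, limma), a call lost without any 1 of 6 h arrays 2, 4 and 5 or 12 h arrays 2, 3 and 4 (0.67 to 0.83, adjusted p = 0.059 to 0.105) and when only those 2 groups were fitted (adjusted p = 0.08). Dusp6 (-0.54, 95% interval -1.24 to 0.16) and Dusp10 (0.53, 0.02 to 1.03) did not pass. The difference between members in this step was not tested.

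No member passed between 12 h and 1 d, where 4.82% of probe sets were called. Dusp6 did without 12 h array 1 (-1.20), 1 d array 1 (-1.17) or 16 d array 5 (-0.94, adjusted p = 0.039). Dusp16 did without 12 h array 5 (-0.84), 1 d array 1 (-0.97) or the 3 narrow arrays (-0.68, adjusted p = 0.038), and with array weights (-0.67), median centring (-0.74) and quantile normalization (-0.70). Dusp8 did without both 1 d array 1 and 16 d array 5 (-0.76, adjusted p = 0.042). Calls over all probe sets in this step went from 392 to 620 without the 3 narrow arrays and to 649 with quantile normalization. Dusp10 fell from 1 d to 2 d by 1.29 on the log2 scale (adjusted p = 8.7e-05, limma), against 13% of probe sets called, and this did not pass when only those groups were fitted (adjusted p = 0.052). From 2 d to 4 d, with 17.9% of probe sets called, Dusp16 fell together with Dusp6, by 0.71 on the log2 scale (adjusted p = 0.027, limma). Both lay wholly below 2 d at 4 d, as did 10.1% of probe sets. The Dusp16 call was lost without 2 d array 4 or 5 or 4 d array 2 or 3 (-0.63 to -0.69) and with arrays centred on their median (-0.57). Dusp10 (-0.61) did not pass over this step, but did with array weights (-0.58), when only those groups were fitted, and without 2 d array 3 (-0.72) or 4 d array 1 (-0.70), 1 d array 1 or 1 d array 3. No member passed in the later steps, where 2.18%, 0% and 0.0123% of probe sets were called.

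The nuclear class had no control values, so its members were compared among the 5 groups with all probe sets, with 1 h and 16 d as the reference times. Neither group is an untreated control. Dusp1 (1448830_at; gene at chr17:26505591-26508472) encodes a nuclear phosphatase that is transcribed within minutes of stress and acts mainly on p38 and JNK. It was high from the first time measured. The 1 h arrays read 11.14, 11.15, 10.90, 11.56 and 11.23, and the 12 h arrays 10.26, 12.12, 11.15, 11.71 and 11.01, with means that differed by 0.05 (95% interval -0.80 to 0.91). At 1 d they read 11.86, 10.23, 9.42, 10.93 and 10.75, and the range widened to overlap both 12 h and 2 d.

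At 2 d Dusp1 read 9.15, 9.34, 8.99, 9.05 and 10.02, and every array was below the lowest 1 h array. The difference from 1 h was -1.89 ± 0.41 (adjusted p = 0.0018, limma). The 16 d arrays read 7.62, 9.11, 8.92, 8.73 and 10.39, again all below 1 h, by -2.24 ± 0.41 (adjusted p = 0.003, limma). At 16 d only 1.7% of probe sets differed from 1 h, and Dusp1 was the 1 member of 8 that did. No comparison of Dusp1 with control was possible with the values used here. Dusp1 was higher at 12 h than at 16 d by 2.30 ± 0.41 (adjusted p = 0.00037) and at 1 d than at 16 d by 1.68 ± 0.41 (adjusted p = 0.0057, limma).

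Dusp5 (1437199_at; gene at chr19:53529145-53541809) encodes a nuclear phosphatase specific for ERK and showed the largest difference from 1 h of the 8 members. The 1 h arrays read 5.63, 5.46, 5.92, 5.44 and 5.32, and the 12 h arrays 7.74, 8.53, 8.57, 9.05 and 8.44. The groups did not overlap. The 12 h difference from 1 h was 2.91 ± 0.47 (7.53-fold; adjusted p = 0.00015, limma). At 1 d the values were 9.35, 6.79, 7.19, 8.16 and 7.79, all above 1 h, and the difference was 2.30 ± 0.47 (adjusted p = 0.0011, limma). At 2 d they read 6.15, 6.78, 6.15, 6.58 and 7.48, still all above 1 h, and the difference of 1.08 did not pass (adjusted p = 0.099). It passed when only those 2 groups were fitted (adjusted p = 0.0059), without 16 d array 5 (adjusted p = 0.026), and without that array and 1 d array 1 (adjusted p = 0.0051).

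Dusp4 (1428834_at; gene at chr8:34807610-34819894), also nuclear and close to Dusp1 in function, was low at 1 h, at 4.66, 4.63, 4.65, 5.30 and 5.37. At 12 h it read 5.54, 6.93, 5.59, 6.06 and 6.19, above every 1 h array. The difference was 1.14 ± 0.32 (adjusted p = 0.017, limma), and it was lost without 12 h array 2 (0.92, adjusted p = 0.063). At 1 d the arrays read 6.59, 5.53, 5.09, 6.59 and 5.90 and overlapped 1 h. That difference, 1.02 ± 0.32 (adjusted p = 0.027, limma), was lost without any 1 of 1 h arrays 1, 2 and 3 or 1 d arrays 1 and 4 (0.86 to 0.95), and without the 3 narrow arrays (0.95, adjusted p = 0.062). At 2 d the difference of 0.73 did not pass (adjusted p = 0.098) unless only those groups were fitted (adjusted p = 0.042).

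Dusp2 (1450698_at; gene at chr2:127336159-127338377), a nuclear phosphatase best known from activated lymphocytes and myeloid cells, did not pass in any contrast. Group means lay between 5.49 and 5.73, and the highest readings were those of the narrow arrays 1 h array 3 (6.20) and 16 d array 4 (6.40). Against 1 h, the 95% intervals were -0.52 to 0.17 at 12 h, -0.51 to 0.18 at 1 d, -0.53 to 0.16 at 2 d and -0.29 to 0.40 at 16 d. A change of 1 log2 unit in either direction lies outside each of them. Without the narrow arrays the differences were -0.04, -0.03, -0.05 and 0.02.

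**Figure D3:**
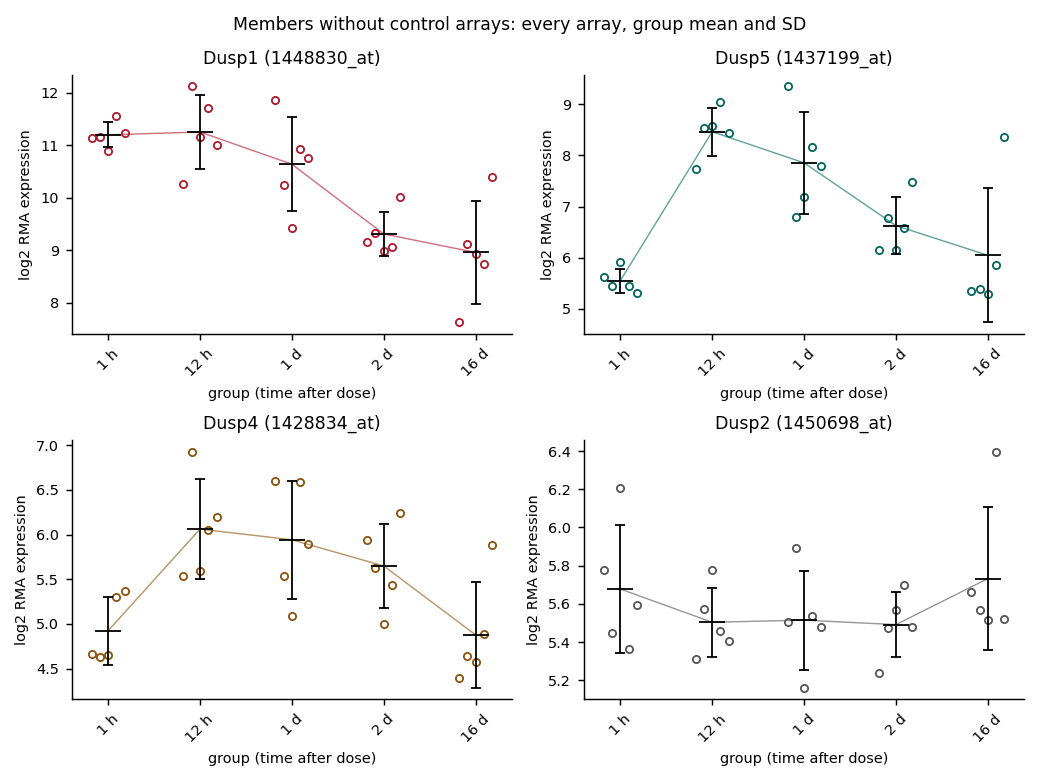
Log2 expression of Dusp1, Dusp5, Dusp4 and Dusp2 in the 5 groups with all probe sets. Open circles are arrays, black bars the group mean and SD (n = 5), and lines join the means; the y axes differ. Dusp1 is high at 1 h and 12 h, Dusp5 and Dusp4 rise between them, and Dusp2 stays between 5.16 and 6.40.

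Against 1 h, 13 of 32 member and time pairs passed over the 25 arrays. The counts were 5 of 8 at 12 h (13.7% of the 45101 probe sets), 3 of 8 at 1 d (17.9%), 4 of 8 at 2 d (23%) and 1 of 8 at 16 d (1.7%). Groups lay wholly above 1 h in 5 of 8 members at 12 h (5.29% of probe sets), 2 at 1 d (6.92%) and 4 at 2 d (8.89%), and wholly below it in 1, Dusp1, at 2 d (8.4%) and at 16 d (1.49%). Of the members not yet described against 1 h, Dusp6 was higher at 12 h by 1.56 ± 0.35, Dusp10 by 2.29 ± 0.28 and Dusp16 by 1.46 ± 0.29 (adjusted p = 0.0038, 6.1e-06 and 0.0011, limma). Dusp10 was also higher at 1 d (2.14, adjusted p = 8.3e-06). Dusp16 at 1 d passed without 1 d array 3 (0.97) or 5 (0.92), and not with all arrays. At 2 d, Dusp6 (0.98), Dusp10 (0.85) and Dusp16 (0.79) passed narrowly, with adjusted p of 0.048, 0.033 and 0.049. None of these 3 passed without the narrow arrays (0.93, 0.82 and 0.62), where 9 of 32 pairs were called. That count is given without the shares of all probe sets called in that fit. At 2 d without 1 h array 3, itself narrow, the values were 0.93, 0.82 and 0.62, and without 2 d array 5 they were 0.91, 0.79 and 0.70, with no call in either case. Leaving out other single arrays, also of other groups, ended these calls for 1 or more of the genes. By the F test, 6 of 8 members differed across the 5 groups and Dusp2 and Dusp8 did not, while 29.9% of probe sets did.

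Against 16 d and between neighbouring times of these groups, 11 of 40 pairs passed. At 12 h, 6 of 8 members were above 16 d (13.7% of probe sets called): Dusp1, Dusp4 (1.18 ± 0.32), Dusp5 (2.42 ± 0.47), Dusp6 (1.43 ± 0.35), Dusp10 (2.02 ± 0.28) and Dusp16 (1.10 ± 0.29). The Dusp4 call was lost without 12 h array 2 (0.97, adjusted p = 0.0505), and that of Dusp6 when only the 2 groups were fitted (adjusted p = 0.072). At 1 d, 4 of 8 were above 16 d (16.1%): Dusp1, Dusp4 (1.06), Dusp5 (1.81) and Dusp10 (1.87). The 1 d call of Dusp4 was lost without any 1 of 1 d arrays 1 and 4 or 16 d arrays 1, 2 and 3 (0.90 to 1.01), and when only the 2 groups were fitted Dusp4 and Dusp5 did not pass (adjusted p = 0.057 and 0.075). At 2 d none of 8 was called against 16 d (16.3%), although Dusp4 (0.86) and Dusp6 (1.04) were with array weights, and Dusp10 (0.58, adjusted p = 0.044) when only those groups were fitted. From 12 h to 1 d none was called (1.06%), and from 1 d to 2 d 1 of 8, Dusp10 (5.57%), which did not pass when only those groups were fitted (adjusted p = 0.07). Dusp1 fell over that last step by 1.33 on the log2 scale and did not pass (adjusted p = 0.061); it did without 1 d array 3 (-1.63) or 2 d array 5 (-1.51), with quantile normalization (-1.40), with 1 value per gene (adjusted p = 0.045) and with the dim probe sets left out (adjusted p = 0.0495).

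The 12 h arrays lay wholly above 16 d in 2 of 8 members (4.67% of probe sets) and the 1 d arrays in 1 of 8 (6.08%).

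These contrasts rest in part on 1 array. In 7 of 8 members, all but Dusp2, 16 d array 5 was the highest of the 16 d group. It read 8.36 for Dusp5, where the other 4 arrays ran from 5.29 to 5.86, and 11.00 for Dusp6, where they ran from 8.47 to 9.37. It read 10.39 for Dusp1 (others 7.62 to 9.11), 6.52 for Dusp8 (others 4.41 to 4.94) and 5.88 for Dusp4 (others 4.40 to 4.89). The excess over the median of the other 4 was thus 2.99 for Dusp5, 2.02 for Dusp6, 1.78 for Dusp8, 1.56 for Dusp1 and 1.28 for Dusp4, and 0.62 and 0.32 for Dusp10 and Dusp16. On the same array the mean over 26 immediate early genes and ERK targets was 8.59, against 6.50 to 6.92 on the other 16 d arrays, and that over 12 other genes of ERK feedback was 6.92, against 5.64 to 5.90. Its hepatocyte marker mean, 13.3, lay within 0.05 of the median of the others, and its neutrophil marker mean of 6.06 lay inside their range of 5.22 to 6.64. Its monocyte and macrophage marker mean of 6.85 was above their range of 6.05 to 6.65, and its cholangiocyte marker mean of 5.53 above their range of 4.72 to 4.86. Other pathway lists were higher on this array too, such as RNA-binding regulators of short-lived transcripts (9.63 against 8.20 to 8.55). Stress adaptors and MAP kinase kinase kinases read 7.11 against 6.06 to 6.34, and kinases downstream of MAP kinases 6.78 against 6.17 to 6.57. The MAP kinases, the Ras and Raf module and atypical phosphatases lay inside the range of the others. Family phosphatases that are not members lay below it, at 5.03 against 5.09 to 5.42. What sets this array apart was not tested.

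Without 16 d array 5, the count of 11 became 17. The shares of all probe sets called in that fit are not given here, so the gain is not read as particular to the members. Dusp4 (1.02, adjusted p = 0.024), Dusp5 (1.16, adjusted p = 0.03) and Dusp6 (1.25, adjusted p = 0.0036) then passed at 2 d against 16 d. Dusp6 passed at 1 d (0.89, adjusted p = 0.033). Dusp1 (-1.33, adjusted p = 0.032) and Dusp5 (-1.23, adjusted p = 0.033) passed between 1 d and 2 d, a step that the array enters only through the common estimate of spread. The Dusp8 probe set 1418714_at, which is not the main one in this table and is not in the count, passed at 12 h (1.12, adjusted p = 0.0099). At 12 h the Dusp5 difference from 16 d went from 2.42 to 2.99 and that of Dusp6 from 1.43 to 1.84 (limma). The 16 d differences from control stayed uncalled for all 4 members measured there, with Dusp6 at -0.60 without the array and -0.19 with it.

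**Figure D4:**
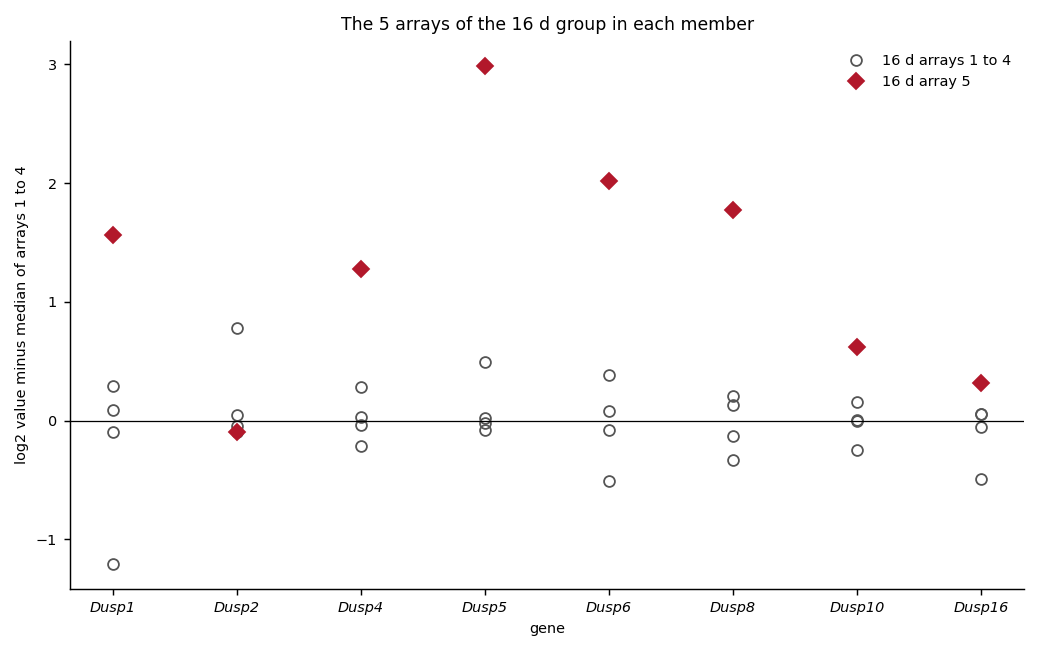
The 5 arrays of the 16 d group in each member, as log2 value minus the median of arrays 1 to 4 (y axis). Array 5 (diamonds) is above the other 4 (circles) in 7 of 8 members, by 2.99 in Dusp5, and is not in Dusp2.

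Arrays ranked alike across members within other groups too. In 7 of 8 members 1 d array 1 was the highest of its group and 1 d array 3 the lowest, and 2 d array 5 was the highest of its group in 7 of 8. At 12 h, array 1 was the lowest in 6 of 8. On 1 d array 1 the mean over 7 neutrophil markers was 7.26, against 5.71 to 6.62 on the other 1 d arrays. Means of other lists lay outside the range of those arrays too. That over the immediate early genes and ERK targets was higher, at 8.54 against 7.26 to 8.24. The mean over the other genes of ERK feedback, 7.24, was 0.57 above the median of the other 1 d arrays. That over stellate cell and myofibroblast markers was lower, at 6.96 against 7.35 to 7.83. The part of any of these lists in the result was not tested. Leaving out 1 d array 1 and 16 d array 5 together, a choice made after seeing the values, gave 14 of 36 calls against control and 12 of 32 between neighbouring times. These counts, too, are given without the shares of all probe sets called in that fit. The Dusp16 difference from control at 1 d was then 0.66 (adjusted p = 0.018) and that of Dusp10 1.92, in place of 0.94 and 2.16.

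Some genes had more than 1 probe set, and these did not all move alike. For Dusp10, the second probe set 1417163_at had group means of 4.50 to 4.83 and was called in no contrast of the reported fit (F test adjusted p = 0.36), while 1417164_at was called at 4 times. Its 12 h difference from control was 0.08 (95% interval -0.15 to 0.31), an interval that leaves out the 2.31 of the other probe set. Without the 3 narrow arrays it passed at 1 d against control (0.27, adjusted p = 0.03). Across the 49 arrays the correlation of the 2 was 0.37, given as a description. For Dusp8, 1418714_at rose at 6 h as above, a time at which 1428864_at and 1447346_s_at had no values. On the 25 arrays, 1428864_at had means of 6.45 to 6.79 and was called in no contrast of the reported fit (12 h minus 1 h 0.29, 95% interval 0.01 to 0.57; with array weights 0.37, adjusted p = 0.0495), and 1418714_at differed there by 0.97 and did not pass either (adjusted p = 0.056). It did pass under several alternatives, among them array weights (1.07), median centring (1.04), quantile normalization (1.04), the dim probe sets left out (0.97, adjusted p = 0.047) and leaving out 12 h array 2 (1.13) or 5 (1.12). When the probe sets of a gene were averaged first, Dusp8 passed at 12 h against 1 h (0.54, adjusted p = 0.014) and against 16 d (0.49, adjusted p = 0.025). The correlation of 1418714_at with 1428864_at was 0.78 and with 1447346_s_at -0.05. For Dusp16, 1440615_at had means of 2.75 to 3.22, below the 3.62 under which the lowest 25% of values lie, and was not called in the reported fit (12 h minus 1 h 0.47, adjusted p = 0.063). It passed with median centring and with quantile normalization (0.54 and 0.52), and without 12 h array 1 (0.56). Where in the transcript each probe set lies was not analysed here, and levels of different probe sets are not compared.

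**Figure D5:**
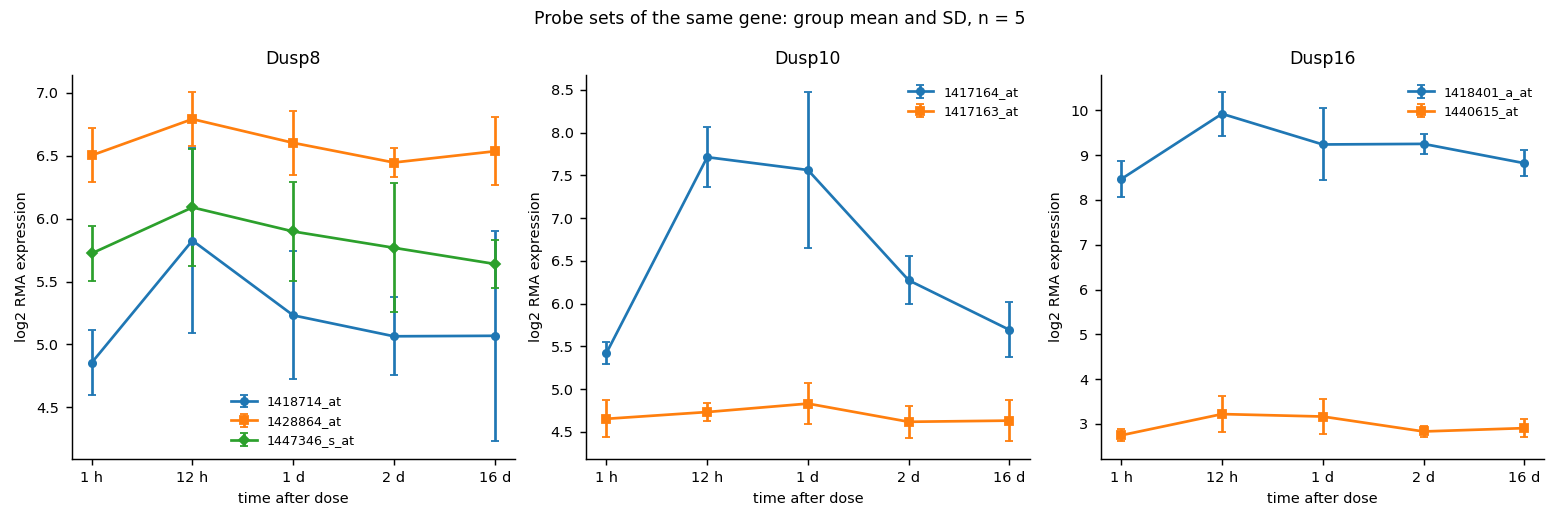
Mean and SD (n = 5) of log2 expression for each probe set of Dusp8, Dusp10 and Dusp16 in the 5 groups with all probe sets; levels of different probe sets are not comparable. For Dusp10, 1417164_at runs from 5.42 at 1 h to 7.71 at 12 h and 1417163_at from 4.65 to 4.73.

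Over the 25 arrays, pairs of members correlated most between Dusp5 and Dusp10 (Pearson r = 0.91), followed by Dusp5 with Dusp6 and with Dusp4 (both 0.83) and Dusp4 with Dusp10 (0.825). Dusp1, already high at 1 h, correlated with the members other than Dusp2 by 0.385 to 0.533. Dusp2 had r of -0.325 to 0.195 with the other members. Over the 49 arrays, Dusp10 correlated with Dusp16 by 0.81 and Dusp6 with Dusp8 and Dusp10 by 0.73 each. These values describe arrays that share their time groups and are given with no p.

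The genes most like each member were named by the highest correlation with it. For Dusp1 they were Brd2 (r = 0.93), Jun (0.90) and Sirt1 (0.88), over 25 arrays and 18194 genes. Jun, a subunit of AP-1, was at 11.0 at 1 h, 12.2 at 12 h and 7.93 at 16 d on average. For Dusp5 they were Myc (0.95), Tgif1 (0.93) and Klf6 (0.93), and for Dusp4 Stk17b (0.90), Cdkn1a (0.90) and Mnt (0.89). Myc, the growth-promoting transcription factor, went from 6.24 at 1 h to 9.72 at 12 h. For Dusp2 they were Cdiptos (0.88), Aoc1 (0.88) and Uba7 (0.87), which fell to 0.66, 0.62 and 0.60 without the 2 narrow arrays among the 25.

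Over the 49 arrays and 5976 genes, Dusp6 was most like Actg1 (0.87), Rasd1 (0.85) and Ets2 (0.83), and Dusp8 most like Ccnl1 (0.85), Ets2 (0.82) and Rnd3 (0.81). Ets2, a transcription factor that ERK phosphorylates, went from 7.78 in control to 9.97 at 6 h and 9.67 at 12 h. Dusp10 was most like Tgif1 (0.94), Adm (0.92) and Klf6 (0.92), and Dusp16 most like Clic4 (0.89), Tgif1 (0.86) and Btc (0.86). Tgif1, a repressor of TGF beta responses, thus stood among the first 3 for Dusp5, Dusp10 and Dusp16. It went from 6.45 in control to 8.47 at 6 h and 9.07 at 12 h. Without the narrow arrays each of these correlations for members other than Dusp2 stayed at 0.82 or above.

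Other parts of the pathway were read from lists of genes, by counts, in the same fits. The counts in this and the following paragraphs stand against the shares of all probe sets called in either direction. Against control these were 0.578% at 1 h, 5.42% at 6 h, 22.8% at 12 h, 28.8% at 1 d and 31.8% at 2 d. At 12 h, 1 d and 2 d they were 13.7%, 17.9% and 23% against 1 h, and 13.7%, 16.1% and 16.3% against 16 d. Of 22 immediate early genes and ERK targets measured with control, 5 were higher and 1 lower at 1 h, where none of the 4 members passed. Egr1 (4.88 ± 0.56), Fos (4.81 ± 0.58) and Jun (3.30 ± 0.36), which are transcribed within minutes of a stimulus, led the rise, and Phlda1 was lower (-2.80 ± 0.41). The list counted 10 higher and 0 lower at 6 h, 12 and 0 at 12 h, 11 and 1 at 1 d and 12 and 2 at 2 d. Fos (6.03), Egr1 (5.85) and Maff (4.79) led at 6 h. The median difference over the list was 0.08 at 1 h, 0.68 at 6 h and 0.95 at 12 h, against 0.00, -0.01 and -0.04 over all probe sets tested.

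Genes of ERK feedback other than phosphatases, most of them inhibitors, counted 4 higher of 9 at 6 h, 3 at 12 h, 3 at 1 d and 4 at 2 d, with none lower and none called at 1 h. Ier3, which is listed among them but is known to prolong ERK activity and protect from cell death, was higher at each of those 4 times (3.02 ± 0.73, 3.14 ± 0.69, 3.94 ± 0.69 and 2.93 ± 0.69). Spry4, an inhibitor of receptor signalling, was higher at 6 h (1.05 ± 0.20), and Spred1, which blocks Ras and Raf, at 12 h (1.10 ± 0.23). Socs3, an inhibitor of cytokine receptors, was higher at 6 h (1.72 ± 0.53). Against 1 h, over 12 genes of this list, 5 were higher and 1 lower at 12 h, and 6 and 1 at 1 d.

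Upstream of ERK, 3 of 12 growth factor ligands and receptors were higher at 6 h (Fgf21 by 4.42 ± 0.55, Pdgfra by 1.33 ± 0.28 and Btc by 1.23 ± 0.32). At 12 h 5 were higher, led by the EGF receptor ligands Ereg (2.64 ± 0.48), Btc (1.63 ± 0.30) and Hbegf (0.87 ± 0.27). At 1 d 5 were higher and 1 lower, and at 2 d 4 were higher. Of 8 genes of the Ras and Raf module, none was called at 6 h, 1 was lower at 12 h, and 2 and 3 were higher at 1 d and 2 d, led by Rras (1.01 and 1.29) and Nras (0.90 and 0.75). The counts at 1 d and 2 d lie near the 28.8% and 31.8% of all probe sets called. Of 10 MAP kinase kinase kinases and stress adaptors, 3 were higher at 6 h (Map3k8 1.79, Traf6 0.65 and Gadd45b 0.38). At 12 h 2 were higher, Map4k4 (0.94) and Gadd45b (0.47). Over the 25 arrays, Gadd45a, a stress-induced activator of kinases upstream of p38 and JNK, was higher at 12 h than at 1 h by 3.60 ± 0.75.

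The kinases themselves were read in the same way. Of 3 MAP kinase kinases measured with control, Map2k1, which activates ERK, was higher by 0.34 at 12 h, 0.54 at 1 d and 0.29 at 2 d. Of 6 MAP kinases, 2 were higher at 6 h, 2 higher and 1 lower at 12 h and 3 higher at 1 d. Mapk6 was higher by 0.80, 0.97 and 0.93 at these times, Mapk8 (JNK) by 0.61 at 6 h and 0.36 at 12 h, and Mapk14 (p38) was lower at 12 h (-0.65). Downstream, Mknk2, a kinase of the translation factor eIF4E, was higher by 0.98 at 6 h and 1.38 at 12 h, the 1 called of 3 measured. Of 2 RNA-binding regulators of short-lived transcripts, both were higher at 6 h, Btg2 by 5.01 ± 0.65 and Zfp36l1 by 1.98 ± 0.42.

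Related phosphatases outside the 8 members were counted in the same way. Styxl1, a catalytically inactive relative, was lower than control at 12 h, 1 d and 2 d (-0.36, -0.41 and -0.51), and was the 1 of 3 further family members measured with control. Over the 25 arrays, none of the 3 was called against 1 h at 12 h or 1 d, and 1 was lower at 2 d. Among atypical dual-specificity phosphatases, smaller enzymes without the domain that docks on MAP kinases, 1 of 3 was lower than control at 12 h, Dusp19 (-0.52 ± 0.13). Of 16 of them measured against 1 h, none was higher at 12 h, 1 d or 2 d, and 1, 1 and 2 were lower; against 16 d, 1, 3 and 2 were higher and 1, 1 and 0 lower. Of 4 other phosphatases that act on MAP kinases, Ppp2cb (0.50) and Ppp2ca (0.25) were higher and Ppm1a (-0.38) lower at 12 h.

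Markers of other cells moved at the same times, and their part in the members' results was not tested. Of all probe sets, 5.42% at 6 h, 22.8% at 12 h, 28.8% at 1 d and 31.8% at 2 d were called against control. Of 5 neutrophil markers measured with control, 1, 2, 2 and 1 were higher at 6 h, 12 h, 1 d and 2 d, led by S100a8 (2.35, 4.32, 4.63 and 2.82). Their mean ran from 4.86 to 5.25 on control arrays, 5.36 to 5.75 at 6 h and 5.33 to 6.72 at 12 h. Of 6 monocyte and macrophage markers, 1, 2, 5 and 6 were higher at these times, with means of 6.01 to 6.43 in control, 6.22 to 7.05 at 6 h and 7.39 to 8.44 at 2 d. Of 5 stellate cell and myofibroblast markers, 0, 1, 2 and 4 were higher, with means of 4.60 to 5.22 in control, 4.87 to 4.97 at 6 h and 6.84 to 7.45 at 2 d. Of 10 lymphocyte markers 4 were lower at 2 d, and none of 2 cholangiocyte markers was called at any time against control. The 3 endothelial markers counted 1 higher at 6 h, 1 higher and 1 lower at 12 h, and 2 higher at 1 d and at 2 d. Of 5 hepatocyte markers, none was called at 6 h and 2, Cyp2e1 and Serpinc1, were lower at 12 h, 1 d and 2 d. The 5 Kupffer cell markers had no control values and are counted against 1 h. Of them, 1 was higher at 12 h, 1 higher and 1 lower at 1 d, and 3 higher at 2 d. At 6 h, where all 4 members were called, the markers called were S100a8, Cd14 and Pecam1, each higher.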

How the data were processed

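Livers were profiled in 49 samples on Affymetrix Mouse Genome 430 2.0 arrays. Per the submitters' processing notes, the deposited log2 values were made with RMA in oligo 1.52.0, which corrects background, quantile normalizes and summarises probe sets; the sources used here do not say whether all arrays shared 1 normalization. Precision depends on how many arrays each group has. Groups were taken from the sample labels. Gene names come from the platform annotation of the probe sets, single-symbol probe sets only; a gene's main probe set has the highest mean. Models with 1 mean per group were fitted with limma 3.58.1 (R 4.3.3; lmFit, contrasts.fit, eBayes), to 8137 probe sets on 49 arrays and to 45101 on 25, with Benjamini-Hochberg adjustment over all probe sets within each contrast and a threshold of 0.05. The fits were tested on simulated data. Named genes are all members, the 3 called genes of largest difference per list (fewer where their values add nothing), and the 3 best correlated genes per member. The members and all gene lists were chosen with earlier results of these data known. Replicate numbers were not taken to pair the arrays and were tried as a block only as an alternative. Other alternatives were 1 value per gene, a filter on the dimmest 25%, array weights, trended and robust variance, 2 rescalings, fits of the compared groups alone, and leaving out arrays. The promoter of Dusp4 and all protein sequences were not used here.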

Additional observations from a re-analysis of the deposited data

Results flagged for a closer look

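Within groups of 4 or 5 arrays, 60 sets of values were tested for an array whose gap to its nearest neighbour takes up most of the group's range (Dixon's test at the 95% level). Of these, 3 stood out, where chance alone gives about 1 in 20. The sets share arrays and are not independent, so this rate cannot tell whether the flags are due to chance. The Dusp8 probe set 1418714_at read 6.52 on 16 d array 5, against 4.41 to 4.94 on the other 16 d arrays. Dusp5 read 8.36 on the same array, against 5.29 to 5.86. Dusp2 read 6.40 on 16 d array 4, one of the 3 arrays of narrow spread, against 5.52 to 5.66 on the others.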

How the results depend on the processing

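Of 44 called differences of single probe sets, 25 kept their call under every alternative run, and over 915 alternative values 835 kept the call, 80 fell short of the threshold and 0 changed sign. Of 149 uncalled differences, 125 stayed uncalled throughout. In these counts an array was left out only of differences that its own group enters; of the others, the uncalled fall of Dusp5 from 1 d to 2 d passed without 16 d array 5 (-1.23, adjusted p = 0.033). The 12 calls against control became 11 to 14 under other settings and 11 to 14 when each array was left out in turn, the 8 between neighbouring times 6 to 12 and 6 to 11, the 13 against 1 h 9 to 15 and 9 to 13, and the 11 against 16 d or between neighbouring times of the 5 groups 8 to 15 and 10 to 17, the 17 being without 16 d array 5. The F test called 4 of 4 members throughout over 10 groups, and 6 to 7 of 8 over 5 groups. With the replicate block, the counts were 11, 8, 12 and 11, and 4 and 6 for the F tests. The member counts of these alternatives are given without the shares of all probe sets called in each. With group means taken out, same-numbered arrays of different groups correlated with a median of 0.067 over 216 pairs (lowest -0.56). Arrays of other numbers correlated with a median of -0.011 over 864 pairs, so same-numbered arrays were slightly more alike. This check cannot decide whether the numbers pair the arrays, and they entered only as the block. The block ended the calls of Dusp16 at 6 h (0.74, adjusted p = 0.064) and at 2 d against 1 h (0.79, adjusted p = 0.052), and made a call of Dusp8 1418714_at at 12 h against 1 h (0.97, adjusted p = 0.041, limma). Centring arrays on their median moved the median of all probe sets at 2 d against control by -0.23, at 2 d against 1 d by -0.13 and at 4 d against 2 d by 0.14. At 2 d it took the share of higher calls against control from 61.2% to 24.5%, while calls in either direction went from 2590 to 4368, and quantile normalization took the share to 41.5%. At 6 h the share of 66.7% became 53.4% and 47.1% (688 calls in place of 441 by quantile normalization), at 1 d 55.4% became 39.6% with centring, at 4 d 59.6% became 40.4% and 44.4%, at 6 d 67.8% became 52.3% and 46.5%, and at 8 d 62.6% became 50.2% by quantile normalization. Dusp10 and Dusp16 stayed called at 2 d with centring, at 0.64 and 0.73. Array weights raised the calls over all probe sets more than 1.5 times in several contrasts (6 h against control from 441 to 935, 6 d from 608 to 1226, 6 h against 1 h from 320 to 964, 6 d against 4 d from 177 to 719). One value per gene lowered those against 1 h at 12 h from 6179 to 3377, with fewer features tested. Quantile normalization raised 6 h against 1 h to 499, 12 h against 6 h from 679 to 1052, 1 d against 12 h from 392 to 649 and 6 d against 4 d to 280. The share of higher calls moved by over 10 points with centring or quantile normalization also at 6 h against 1 h (78.1% to 64% and 51.7%), 2 d against 1 d (72.8% to 41.9% and 53.9%) and 4 d against 2 d (29.7% to 59% and 44.1%). Over the 25 arrays centring took it from 46% to 62.2% at 12 h, from 49% to 61.3% at 1 d and from 47.4% to 62.6% at 2 d, each against 1 h. Array number and the wide spread of the 12 h, 1 d and 16 d groups limit the differences that could be called.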
